A study of Mus musculus with 6 samples.

Results

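The autophagy machinery of BV2, an immortalised mouse microglial cell line, was followed across 6 RNA sequencing libraries. Its members are the protein-coding genes of the annotated expression table whose symbol begins with Atg and a digit (19 genes) together with 19 named partners of the ATG proteins, 38 genes of 25032. In the labels, 3 libraries came from BV2 cells overexpressing GFP, the control protein, and 3 from BV2 cells overexpressing TDP43-NLS, described in the series' design text as TDP-43 with a mutated nuclear localisation signal. TDP-43 binds RNA and normally resides in the nucleus. All 6 were grown in the same serum-containing medium. The labels do not give the promoter, the species of the construct, its delivery, the time of expression or the number of clones or cultures, so p-values measure the spread between these libraries, which may be technical.

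Autophagy encloses cytoplasm in a growing membrane, the phagophore, which closes into an autophagosome and fuses with the lysosome. The ULK kinase complex starts the process, a PI3-kinase complex marks the membrane with the lipid PI3P, WIPI and ATG2 proteins bind and extend it, and ubiquitin-like conjugation attaches ATG8 proteins (LC3 and GABARAP) to it. Receptors then tether cargo to the ATG8 proteins. In microglia the same conjugation enzymes also serve LC3-associated phagocytosis, in which LC3 is placed on phagosomes, and Rubcn supports that route while restraining the canonical one.

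Counted reads ranged from 15062131 to 18005592 per library. All 12 macrophage markers were above 1 CPM on average (CPM are library-scaled read counts, not divided by gene length). Their summed level was 4410 to 4540 CPM in the GFP libraries and 5390 to 5560 CPM in the TDP43-NLS libraries. The list was split, with 5 markers called higher and 5 lower at an adjusted p under 0.05. Of all tested genes 29.3% were called higher and 28.2% lower. Of 8 microglial markers 5 were above 1 CPM (list sum 424 to 465 against 312 to 330 CPM), and 2 were called higher and 4 lower. P2ry12 had 15, 22 and 27 reads in GFP and 4, 4 and 5 in TDP43-NLS libraries. Summed markers of other cells stayed at or below 5.32 CPM in every library, and the endothelial list moved with the group (0.626 to 1.09 against 3.97 to 4.55 CPM), with Kdr its only member above 1 CPM, as did the neuronal list (0.236 to 0.569 against 1.21 to 1.29 CPM), with no member above 1 CPM. The part of these lists in the results was not tested. GFP replicate 2 stood apart from the other GFP libraries: the chi-square per degree of freedom over genes was 7.31 and 7.35 for its pairs with them and 1.2 between GFP replicates 1 and 3, against 1.88 to 2.75 among the TDP43-NLS libraries, where 1 is sampling noise alone. Without it 16 members were called higher and 13 lower, and the members that this moved are given below. Tardbp, the mouse gene of TDP-43, went from 451 CPM with GFP to 376 with TDP43-NLS, lower in the group labelled as overexpressing TDP-43 (log2 fold change -0.26, adjusted p = 0.000291). The construct had no row of its own, and whether any of its reads were counted as Tardbp is not known. Every direction below therefore rests on the labels. In bulk RNA, fewer cells of a kind and less RNA per cell cannot be told apart.

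The autophagy genes moved in both directions and mostly by little. Of the 38 members 37 had enough reads for a test, and 14 rose and 10 fell in the TDP43-NLS libraries, while 13 were not called (edgeR's quasi-likelihood test, Benjamini-Hochberg adjusted p under 0.05 over all 13199 genes tested). Across all tested genes 57.5% were called, 29.3% higher and 28.2% lower, so the members' share of 64.9% (37.8% higher, 27% lower) was near the background. The median log2 fold change of the members was 0.10, against 0.00 for all tested genes. Only 4 of the 37 differed by at least 0.5 on the log2 scale, which is 10.8%, against 26.4% of all tested genes. The groups did not overlap in 27 of the 37, or 73%, against 63.2% of all tested genes. With column totals alone as the scaling, 11 members rose and 12 fell, against 26.2% and 31.9% of all genes (58.0% in all), and the median of all genes moved to -0.034. Against a required log2 fold change of 0.5, 1 member was called higher and 2 lower, where 9.25% and 5.64% of all genes were. DESeq2 called 11 higher and 7 lower, where it called 49.6% of all genes, and a fit with the replicate number as a block called 14 and 10, where it called 57.0%. Without GFP replicates 1, 2 and 3 in turn, 53.4%, 61.7% and 52.8% of all genes were called (30.3% lower without replicate 2) and 22, 29 and 20 members. Without TDP43-NLS replicates 1, 2 and 3 those shares were 52.4%, 50.5% and 51.7%, with 22, 19 and 19 members called.

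**Figure D1:**
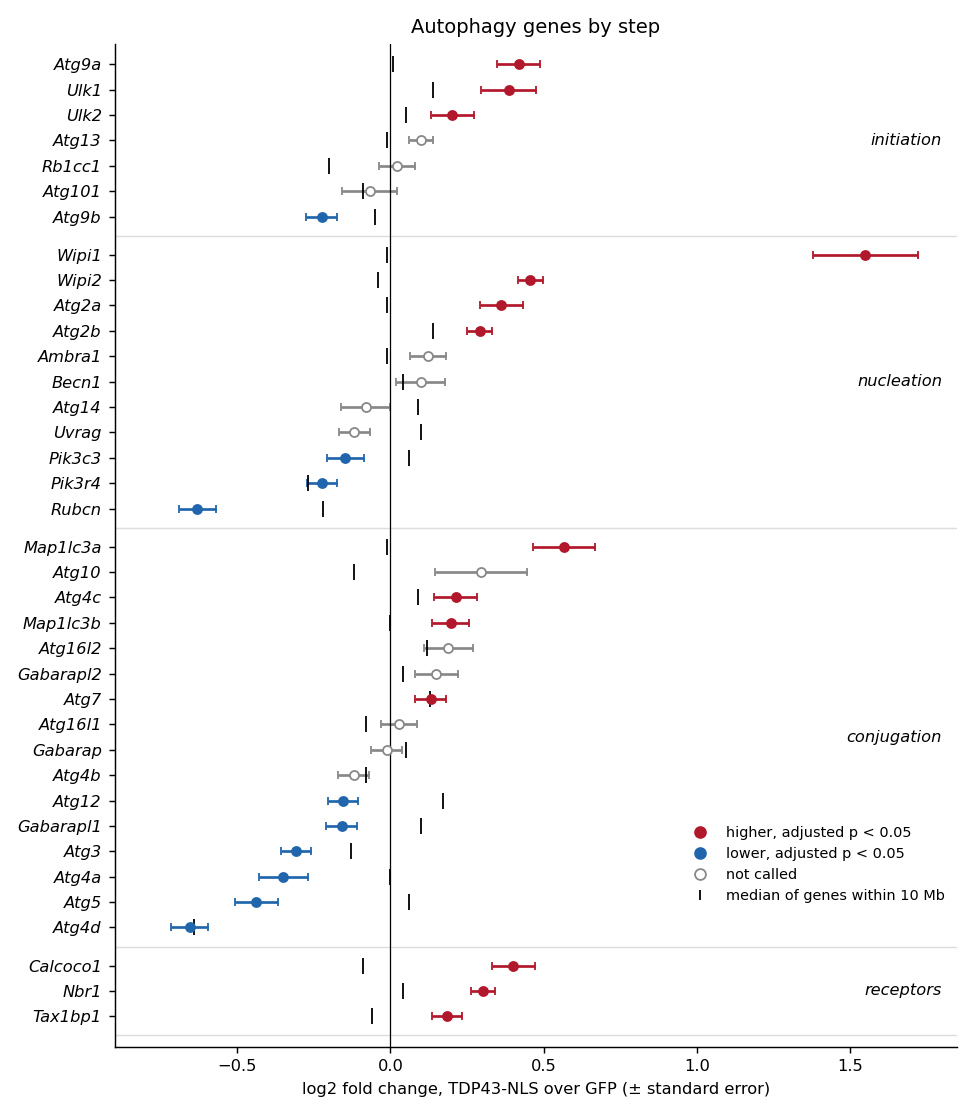
Log2 fold change (TDP43-NLS over GFP, with its standard error) of the 37 tested autophagy genes, grouped by step, with the median fold change of the genes within 10 Mb of each as a vertical tick. Wipi1, Wipi2, Atg2a, Atg2b and the 3 receptors all lie to the right of 0, and Atg4d lies on the tick of its neighbours.

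By step, initiation had 3 genes higher and 1 lower of 7 tested, nucleation 4 higher and 3 lower of 11, conjugation 4 higher and 6 lower of 16, and the receptors 3 higher of 3. Their median log2 fold changes were 0.10, 0.10, 0.01 and 0.30. Within nucleation Wipi1, Wipi2, Atg2a and Atg2b all rose (median 0.41), though the PI3P reader Wdr45b of the wider list fell, and of the 7 genes of the PI3-kinase complexes and their regulators 3 fell and none rose (median -0.12). These steps hold few genes each and whether they differ was not tested.

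Expression levels differed widely between members. In FPKM, which divides by gene length as well as depth and so allows genes to be compared, the means over the 6 libraries ran from 0.86 for Wipi1 to 117 for Gabarap, with a median of 7.33. Only 7 members stood above 20 FPKM, 5 of them being Gabarap, Map1lc3b, Atg3, Gabarapl2 and Gabarapl1 of the conjugation step, and Atg13 (46.8) and Atg101 (30.7) of the ULK complex the others. The kinases Ulk1 and Ulk2 stood at 2.25 and 3.37 FPKM and their scaffold Rb1cc1, also called FIP200, at 2.50.

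At initiation the kinase genes rose and the rest of their complex was not called in the main comparison. Ulk1 (ENSMUSG00000029512, chromosome 5, 110932354 to 110957963, minus strand, GRCm39), the kinase that phosphorylates Beclin 1 and ATG14, had 11.2, 13.7 and 13 CPM in GFP and 16.8, 16.6 and 16.3 in TDP43-NLS libraries. The lowest TDP43-NLS library was above the highest GFP library, and the log2 fold change was 0.39 (standard error 0.09, adjusted p = 0.0018). Ulk2, its close paralogue, had 17.6, 19.1 and 19.5 CPM against 20.1, 22.8 and 21.8, a narrow gap between the groups and a log2 fold change of 0.20 (adjusted p = 0.0335). Atg13, the subunit that links the kinase to its scaffold, had a log2 fold change of 0.10 (adjusted p = 0.0621), Rb1cc1 of 0.02 (adjusted p = 0.787) and Atg101, which stabilises Atg13, of -0.07 (adjusted p = 0.543).

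The ATG9 paralogues, lipid scramblases carried on the vesicles that seed the phagophore, moved in opposite directions. Atg9a (ENSMUSG00000033124, chromosome 1, 75157504 to 75168840, minus strand) had 28.2, 32.0 and 26.8 CPM in GFP and 40.8, 37.9 and 37.7 in TDP43-NLS libraries, and its log2 fold change was 0.42 (standard error 0.07, adjusted p = 0.000201). Atg9b (ENSMUSG00000038295, chromosome 5, 24589179 to 24597141, minus strand) had 41.5, 41.6 and 41.3 CPM against 34.6, 35.8 and 36.0, and its log2 fold change was -0.22 (standard error 0.05, adjusted p = 0.00221). Neither pair of groups overlapped. Per length Atg9b was the more abundant paralogue in every library, and its share of their summed FPKM was 67.7% ± 1.96 with GFP and 57.2% ± 1.57 with TDP43-NLS (SD, n = 3 each), while the sum itself was 15.7 ± 0.536 and 15.5 ± 0.085 FPKM. Nos3, whose gene overlaps Atg9b by 294 bases on the other strand, had 4 reads in all.

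The largest change of any member was in Wipi1, which binds PI3P on the growing phagophore. Wipi1 (ENSMUSG00000041895, chromosome 11, 109464157 to 109502793, minus strand) had 29, 41 and 27 reads in GFP and 83, 110 and 92 in TDP43-NLS libraries, or 1.87, 2.42 and 1.54 against 5.59, 6.17 and 5.29 CPM. Every TDP43-NLS library was well above every GFP library, 2.93-fold on the fitted scale (log2 fold change 1.55, standard error 0.17, adjusted p = 4.07e-06). Wipi1 remained less abundant than Wipi2: of the FPKM of these 2 genes it held 4.61% ± 1.09 with GFP and 9.35% ± 0.835 with TDP43-NLS (SD, n = 3 each). Over all 4 WIPI genes, which adds Wdr45b (WIPI3) and Wdr45 (WIPI4) of the wider list, its share was 1.92% ± 0.436 and 4.98% ± 0.505, and their sum was 23.2 ± 0.133 and 25.6 ± 0.447 FPKM (SD, n = 3 each, not tested). Wdr45b fell, from 13 to 11.2 FPKM (log2 fold change -0.18, adjusted p = 0.00602), and the sparse Wdr45 rose, from 0.449 to 0.711 FPKM (log2 fold change 0.70, adjusted p = 0.018).

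Wipi2 (ENSMUSG00000029578, chromosome 5, 142613453 to 142656343, plus strand), which recruits ATG16L1 to the PI3P-marked membrane, had 96.3, 94.5 and 97.7 CPM in GFP and 130, 130 and 136 in TDP43-NLS libraries. The spread within each group was small beside the gap, and the log2 fold change was 0.46 (standard error 0.04, adjusted p = 9.3e-07). The ATG2 proteins bridge the endoplasmic reticulum and the phagophore and let lipid flow between them. Atg2a (ENSMUSG00000024773, chromosome 19, 6291698 to 6312365, plus strand) had 50.7, 56.5 and 46.9 CPM against 69.6, 66.1 and 62.6, a log2 fold change of 0.36 (adjusted p = 0.000477). Atg2b (ENSMUSG00000041341, chromosome 12, 105582395 to 105651470, minus strand) had 124, 134 and 124 CPM against 156, 159 and 153, a log2 fold change of 0.29 (adjusted p = 9.61e-05). Both paralogues rose without overlap, and the share of Atg2a in their summed FPKM was 41.3% ± 1.37 and 42.5% ± 1.08 (SD, n = 3 each).

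**Figure D2:**
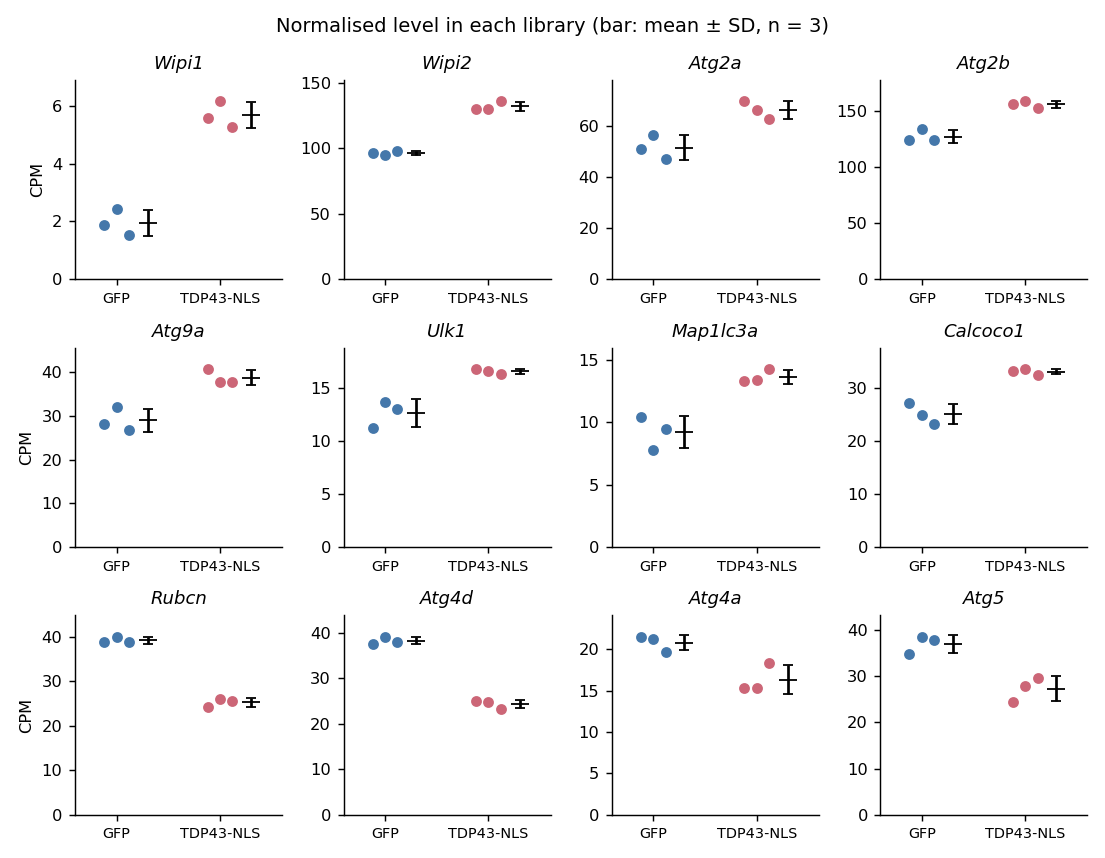
Normalised level (CPM, axis from 0) of 12 autophagy genes in each of the 3 GFP and 3 TDP43-NLS libraries, with the mean and SD of each group beside the points. Wipi1 stands at 1.54 to 2.42 CPM in the GFP libraries and 5.29 to 6.17 in the others, and in each of the 12 panels the groups do not overlap.

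The promoters of Wipi1 and Wipi2 are shown because both rose, in unequal measure. The windows are the 250 bases before the RefSeq transcription start, on GRCm38.p6, which is not the build of the expression table, read in the direction of the gene. Capitals mark the match to an NF-kB-type motif (either strand) in Wipi2.
Wipi1, chr11:109611390-109611639, minus strand: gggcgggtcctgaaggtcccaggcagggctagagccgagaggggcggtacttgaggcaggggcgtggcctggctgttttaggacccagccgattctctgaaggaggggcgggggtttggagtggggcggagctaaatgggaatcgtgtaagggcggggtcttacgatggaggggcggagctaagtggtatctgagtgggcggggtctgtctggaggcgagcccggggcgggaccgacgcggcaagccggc
Wipi2, chr5:142629334-142629583, plus strand: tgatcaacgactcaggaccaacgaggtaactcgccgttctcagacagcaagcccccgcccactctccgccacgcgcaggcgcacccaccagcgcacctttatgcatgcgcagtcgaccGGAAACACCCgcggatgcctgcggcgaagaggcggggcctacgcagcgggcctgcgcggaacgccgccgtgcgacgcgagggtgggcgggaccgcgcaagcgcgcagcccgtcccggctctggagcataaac
The Wipi2 match begins 132 bases before the start. The Wipi1 window held none of the 8 motifs searched, which says only that these letters are absent from it. Of all 32851 RefSeq windows of this length 1.41% held the NF-kB-type motif, and 1 of the 36 windows of the 31 members with a usable entry did. A match of letters is a description and not a binding site.

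The PI3-kinase genes were lower or not called, and Rubcn fell most. Rubcn (ENSMUSG00000035629, chromosome 16, 32642073 to 32698136, minus strand), the Beclin 1-binding protein Rubicon, had 38.7, 40.0 and 38.8 CPM in GFP and 24.2, 26.0 and 25.6 in TDP43-NLS libraries. The groups were far apart, at 0.646 of the GFP level (log2 fold change -0.63, standard error 0.06, adjusted p = 7.56e-07). Pik3r4, the regulatory subunit VPS15, had 50.2, 54.0 and 49.0 CPM against 44.9, 43.6 and 42.8 (log2 fold change -0.22, adjusted p = 0.00343), and Pik3c3, the catalytic subunit VPS34, had 57.1, 50.4 and 53.9 against 50.3, 48.2 and 47.3 (log2 fold change -0.15, adjusted p = 0.0424). In Pik3c3 the highest TDP43-NLS library was just below the lowest GFP library. Becn1, the core subunit Beclin 1, had 44 ± 4.71 and 47.1 ± 3.01 CPM (SD, n = 3 each, log2 fold change 0.10, adjusted p = 0.285). Atg14 and Uvrag, which direct the complex to the phagophore and to endosomes, had log2 fold changes of -0.08 (adjusted p = 0.388) and -0.12 (adjusted p = 0.0534), and Ambra1, a Beclin 1 partner, of 0.12 (adjusted p = 0.0742).

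In the conjugation step, 7 genes encode the conjugation enzymes and the parts of the ATG12-ATG5-ATG16L complex. Of these 3 fell, 1 rose and 3 were not called. Atg5 (ENSMUSG00000038160, chromosome 10, 44144354 to 44240287, plus strand), the acceptor of ATG12, had 34.8, 38.5 and 37.7 CPM in GFP and 24.3, 27.9 and 29.6 in TDP43-NLS libraries. Its groups did not overlap, and the log2 fold change was -0.44 (standard error 0.07, adjusted p = 0.000223). Atg3 (ENSMUSG00000022663, chromosome 16, 44979148 to 45008901, plus strand), the E2-like enzyme that passes LC3 to its lipid, had 84.3, 79.7 and 86.3 CPM against 67.5, 65.5 and 69.1 (log2 fold change -0.31, standard error 0.05, adjusted p = 0.00013). Atg12, the ubiquitin-like partner of ATG5, also fell by little, from 45.1 to 40.5 CPM (log2 fold change -0.15, adjusted p = 0.0281). The gene that rose was Atg7, the E1-like enzyme that activates both ATG12 and the ATG8 proteins, from 63.8 to 69.8 CPM (log2 fold change 0.13, adjusted p = 0.031). Atg10, the E2-like enzyme of ATG12, was sparse, at 4.68 ± 0.935 and 5.68 ± 0.69 CPM (SD, n = 3 each, adjusted p = 0.118), and Atg16l1 and Atg16l2, the scaffolds of the complex, had log2 fold changes of 0.03 (adjusted p = 0.723) and 0.19 (adjusted p = 0.055).

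The ATG4 proteases, which trim the ATG8 proteins before conjugation and release them from membranes afterwards, did not move together. Atg4d (ENSMUSG00000002820, chromosome 9, 21176589 to 21189068, plus strand) had 37.6, 39.1 and 38.0 CPM in GFP and 24.9, 24.8 and 23.2 in TDP43-NLS libraries (log2 fold change -0.66, standard error 0.06, adjusted p = 6.06e-07). Atg4a (ENSMUSG00000079418, chromosome X, 139857656 to 139947266, plus strand) had 21.5, 21.2 and 19.7 CPM against 15.3, 15.3 and 18.3, with TDP43-NLS replicate 3 nearest the GFP libraries (log2 fold change -0.35, standard error 0.08, adjusted p = 0.00317). Atg4c rose, with 14.1, 14.2 and 13.5 CPM against 16.0, 16.8 and 15.6 (log2 fold change 0.21, adjusted p = 0.0262). Atg4b, the most active family member on LC3, had 50.4, 48.2 and 51.3 CPM against 45.6, 46.4 and 45.9 (log2 fold change -0.12, adjusted p = 0.0562). Summed over the 4 genes the level was 22.7 ± 0.359 FPKM with GFP and 18.9 ± 0.349 with TDP43-NLS (SD, n = 3 each), and the share of Atg4d went from 23.5% ± 0.603 to 17.5% ± 0.983 while that of Atg4c went from 18.6% ± 0.274 to 25.2% ± 1.15. Atg4a-ps, whose symbol marks it as a pseudogene though the annotation calls it protein-coding, had 2, 3 and 6 reads against 2, 0 and 3 and was the only member too sparse to test.

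Among the ATG8 genes both LC3 genes rose, and of the 3 GABARAP genes 1 fell and the others were not called. Map1lc3a (ENSMUSG00000027602, chromosome 2, 155118217 to 155119993, plus strand), which encodes LC3A, had 10.4, 7.80 and 9.51 CPM in GFP and 13.3, 13.4 and 14.3 in TDP43-NLS libraries. Its TDP43-NLS libraries were closely spaced and above the more scattered GFP libraries (log2 fold change 0.57, standard error 0.10, adjusted p = 0.000424). Map1lc3b, which encodes LC3B, the usual marker of autophagosomes, had 198, 167 and 200 CPM against 211, 212 and 224 (log2 fold change 0.20, standard error 0.06, adjusted p = 0.0139), with GFP replicate 2 the lowest.

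Gabarapl1 fell, with 47.5, 45.7 and 48.7 CPM in the GFP libraries against 42.8, 41.7 and 42.7 (log2 fold change -0.16, adjusted p = 0.0174). Gabarap itself had 227, 202 and 219 CPM against 208, 213 and 222, which overlapped (log2 fold change -0.01, adjusted p = 0.853), and Gabarapl2 had 53.8, 46.8 and 55.0 against 61.6, 54.7 and 56.5 (log2 fold change 0.15, adjusted p = 0.0746). Gabarap held 59.8% ± 0.766 and 57.4% ± 0.854 of the summed ATG8 FPKM (SD, n = 3 each), and the share of Map1lc3a went from 3.98% ± 0.332 to 5.71% ± 0.0937. The family sum was 198 ± 12.4 and 200 ± 4.44 FPKM (exact permutation test, two-sided, p = 0.9). With 3 libraries against 3 the smallest p of that test is 0.1, and 26 family shares and sums were compared, none below an adjusted p of 0.137. Reads shared with near-identical copies of these genes could have been lost or misassigned, and how the counting treated them is not described in the sources used here.

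**Figure D3:**
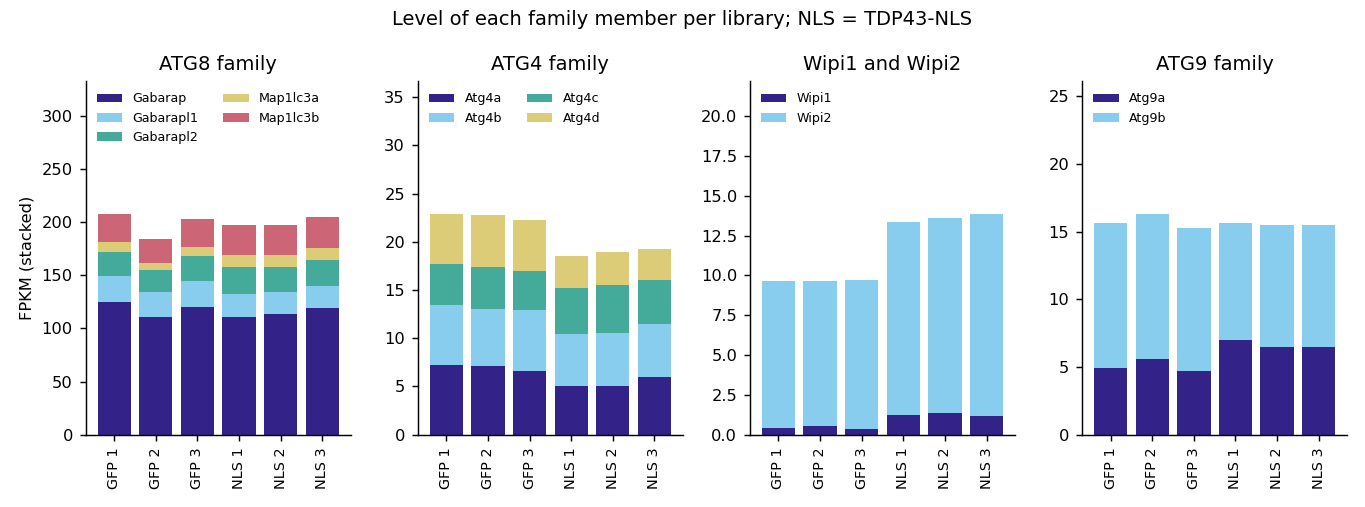
FPKM of each paralogue, stacked, in each of the 6 libraries for the ATG8, ATG4 and ATG9 families and for Wipi1 and Wipi2 among the WIPI genes (bars from 0). The ATG8 and ATG9 sums are alike between the groups, the sum of Wipi1 and Wipi2 goes from 9.68 to 13.6 FPKM on average and the ATG4 sum from 22.7 to 18.9.

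The promoters of Atg3, Atg5 and Rubcn are shown because each of these genes fell and each window holds the E-box CACGTG, the core of the element bound by TFEB and other bHLH factors. The windows are again the 250 bases before the RefSeq start on GRCm38.p6, in the direction of the gene, and capitals mark CACGTG and, in Atg3, its longer form TCACGTGA, which contains it.
Atg3, chr16:45158579-45158828, plus strand: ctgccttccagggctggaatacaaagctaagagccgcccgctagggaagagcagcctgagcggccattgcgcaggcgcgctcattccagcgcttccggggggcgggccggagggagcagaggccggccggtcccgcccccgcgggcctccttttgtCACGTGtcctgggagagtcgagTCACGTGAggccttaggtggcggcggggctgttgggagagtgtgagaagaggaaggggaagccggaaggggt
Atg5, chr10:44268089-44268338, plus strand: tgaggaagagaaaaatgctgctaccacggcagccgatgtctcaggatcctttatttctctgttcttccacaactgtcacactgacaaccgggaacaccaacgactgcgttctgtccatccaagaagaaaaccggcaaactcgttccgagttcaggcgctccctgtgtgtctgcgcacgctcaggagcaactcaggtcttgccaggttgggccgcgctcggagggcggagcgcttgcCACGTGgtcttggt
Rubcn, chr16:32868367-32868616, minus strand: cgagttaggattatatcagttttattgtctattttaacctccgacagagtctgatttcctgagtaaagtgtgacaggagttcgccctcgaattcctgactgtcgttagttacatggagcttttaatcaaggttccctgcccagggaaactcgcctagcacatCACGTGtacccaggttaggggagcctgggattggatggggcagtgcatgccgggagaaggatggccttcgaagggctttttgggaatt
The matches begin 94 and 71 bases before the start in Atg3, 14 in Atg5 and 88 in Rubcn, where the window belongs to the further downstream of 2 annotated starts and the other window holds no match. The fourth member with the motif, Atg7, rose. In all, 4 of the 36 member windows (11.1%) held CACGTG, against 6.02% of all windows. The longer form TCACGTGA was in 1 member window and in 0.785% of all windows, and the full CLEAR element was in no member window and in 0.24% of all. The other motifs searched on both strands were TGANTCA (AP-1), TGACGTCA (CRE), TGTTTAC (FOXO) and TGATGCAA (amino acid response), found in 0, 1, 0 and 0 member windows and in 6.75%, 1.55%, 3.17% and 0.791% of all windows. Nothing about any factor follows from these letters.

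All 3 cargo receptors of the set rose. Calcoco1 (ENSMUSG00000023055, chromosome 15, 102615212 to 102630613, minus strand), a receptor for the endoplasmic reticulum and Golgi, had 27.2, 25.0 and 23.3 CPM in GFP and 33.3, 33.7 and 32.6 in TDP43-NLS libraries (log2 fold change 0.40, standard error 0.07, adjusted p = 0.000166). Nbr1 (ENSMUSG00000017119, chromosome 11, 101442975 to 101472777, plus strand), which binds ubiquitinated cargo and peroxisomes, had 68.1, 69.9 and 69.0 CPM against 85.3, 86.7 and 83.4 (log2 fold change 0.30, standard error 0.04, adjusted p = 6.65e-05). Tax1bp1, a receptor for ubiquitinated cargo that also restrains NF-kB signalling, had 138, 145 and 145 CPM against 162, 155 and 170 (log2 fold change 0.18, standard error 0.05, adjusted p = 0.00363). No receptor's groups overlapped, and each call held without any library in turn.

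Genes near some members had shifted together, and 5 called members were not called relative to their neighbours, while 4 others became called. Beside each member the median log2 fold change of the well-expressed genes within 10 Mb was taken, and the test was repeated with that median as the zero point, which called 14 members higher and 9 lower, and 55.8% of all genes. Atg4d lay among 69 genes with a median of -0.64 and had -0.02 relative to them (adjusted p = 0.797). Pik3r4, on another part of chromosome 9, lay among genes at -0.27, and its relative log2 fold change was 0.05 (adjusted p = 0.45). Atg7, Ulk2 and Atg4c were no longer called relative to their neighbours (adjusted p = 0.986, 0.101 and 0.165). Rubcn, in a region at -0.22, was -0.41 relative to it (adjusted p = 4.1e-05), Ulk1 was 0.25 (adjusted p = 0.0275) and Atg2b was 0.15 (adjusted p = 0.0136). Wipi1, Wipi2, Atg2a, Atg9a, Map1lc3a and Calcoco1 had neighbours between -0.09 and 0.01 and relative changes of 1.56, 0.50, 0.37, 0.41, 0.58 and 0.49. The members called only relative to their neighbours were Rb1cc1 (0.22, adjusted p = 0.0087), Uvrag (-0.22, adjusted p = 0.00165), Atg10 (0.42, adjusted p = 0.0332) and Atg13 (0.11, adjusted p = 0.0398). For Atg12 the relative change was larger, -0.32 (adjusted p = 0.000252). With the median of the whole chromosome as the zero point, which called 56.0% of all genes, Map1lc3b (0.14, adjusted p = 0.0727), Pik3r4, Atg7 and Atg3 were not called. Atg3 had -0.07 there (adjusted p = 0.217) and -0.18 relative to near neighbours (adjusted p = 0.00719).

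Opposite-strand genes with over 100 reads overlapped 8 members, and where strand was not used their reads cannot be told apart in the overlap. Fyttd1, which overlaps Rubcn by 267 bases, fell by a similar amount (log2 fold change -0.61, adjusted p = 9.72e-07), and Kri1, which overlaps Atg4d by 4316 bases, had a log2 fold change of -0.59 (adjusted p = 8.3e-06). Ankzf1, which overlaps Atg9a by 46 bases, rose by 0.25 (adjusted p = 0.00521).

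Some smaller calls depended on single libraries. Of the 11 called members with an absolute log2 fold change under 0.3, 7 lost the call when some library was left out. Pik3c3 lost it without GFP replicates 1 or 3 or any TDP43-NLS library (adjusted p = 0.0592 to 0.181), and Atg7 without GFP replicates 2 or 3 or any TDP43-NLS library (0.0516 to 0.0976). Atg12 lost it without GFP replicates 1 or 3 or TDP43-NLS replicates 2 or 3 (0.055 to 0.148), and Gabarapl1 without GFP replicate 3 or TDP43-NLS replicates 2 or 3 (0.0536 to 0.082). Ulk2 lost it without GFP replicate 1 or TDP43-NLS replicates 2 or 3 (0.074 to 0.132), Atg4c without GFP replicate 3 or TDP43-NLS replicate 2 (0.0913 to 0.0941), and Map1lc3b without TDP43-NLS replicate 3 (0.0739). Without GFP replicate 2, Atg13 (0.13), Ambra1 (0.16) and Atg16l2 (0.25) were called higher and Atg101 (-0.19), Uvrag (-0.14) and Atg4b (-0.15) lower, with log2 fold changes in parentheses, and Map1lc3b went from 0.20 to 0.12 and remained called (adjusted p = 0.00625). Atg10 was called without GFP replicate 1, Gabarapl2 without GFP replicate 3, Ambra1 without TDP43-NLS replicate 3 and Atg16l2 without TDP43-NLS replicate 2, all higher. The 13 members with larger calls kept them without each library.

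Around the core machinery, a wider list of 91 autophagy genes (nutrient signalling, transcription factors, membrane supply, fusion and further receptors) gave 83 that could be tested, of which 25 rose and 27 fell, near the background of 29.3% and 28.2%. The median log2 fold change was -0.03. Members of this list with the smallest adjusted p in each role are described below.

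Tfeb, the transcription factor that drives lysosomal and autophagy genes, fell. It had 51.8, 62.5 and 52.9 CPM in GFP and 25.8, 26.2 and 25.0 in TDP43-NLS libraries, so that the latter were tightly grouped far below the former (log2 fold change -1.12, standard error 0.07, adjusted p = 3.67e-08). Tfe3 and Mitf, also on this list, were not called (log2 fold changes -0.10 and -0.05, adjusted p = 0.239 and 0.519). The sparse Tfec rose, from 0.515 to 1.07 CPM (log2 fold change 1.02, adjusted p = 0.00838). Of the 11 transcription factor genes 5 rose and 2 fell. The other gene that fell was Foxo1, which also drives autophagy genes, from 13.4 to 8.30 CPM (log2 fold change -0.68), and the stress factors Ddit3 and Atf4 rose by 0.73 and 0.25 on the log2 scale.

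Among the genes that signal amino acids at the lysosome, Rragd and Flcn fell. Of their partners Rragc and Fnip1 fell by less (log2 fold changes -0.19 and -0.15), Rraga rose (0.21) and Fnip2 was not called. Rragd, a Rag GTPase that holds TFEB and mTORC1 at the lysosome, had 18.7, 20 and 21.6 CPM against 3.23, 4.15 and 3.05, the largest decrease on the list (log2 fold change -2.52, standard error 0.12, adjusted p = 1.15e-09). Flcn, folliculin, which activates the Rag proteins, had 130, 134 and 127 CPM against 94.5, 94.3 and 91.7 (log2 fold change -0.48, adjusted p = 6.58e-07). In nutrient signalling as a whole 5 genes rose and 10 fell of 24 tested. The sestrins, stress-induced inhibitors of mTORC1, split, with Sesn1 at -1.20 and Sesn2 at 1.01.

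Genes that supply or shape the phagophore membrane had 5 higher and 6 lower of 15. Vmp1, a scramblase of the endoplasmic reticulum, had 65.2, 59.6 and 60.7 CPM against 94.9, 106 and 111, the gap being several times the spread (log2 fold change 0.75, standard error 0.06, adjusted p = 2.76e-07). Zfyve1, which encodes DFCP1, a PI3P-binding marker of the sites where phagophores form, rose by 0.54 and Snx18 by 0.34, and Sh3glb1, which encodes the Beclin 1 partner Bif-1, fell by 0.28. In the fusion list, 2 genes rose and 6 fell of 14. Plekhm1, an adaptor between Rab7, the HOPS tether and LC3, had 273, 286 and 274 CPM against 197, 189 and 190 (log2 fold change -0.53, adjusted p = 1.42e-07). The HOPS subunits did not move together. Vps11 fell by 0.48 among chromosome 9 neighbours at -0.37, and Vps33a fell by 0.37. Vps41 also fell (log2 fold change -0.16, adjusted p = 0.00998), and Vps18 was not called (log2 fold change -0.07, adjusted p = 0.148). Vps39 and Vps16 rose by 0.39 each. Vps41, Vps18, Vps39 and Vps16 were named after their values were seen. Tecpr1, a tether at the lysosome, fell by 0.38.

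The further receptors had 8 genes higher and 3 lower of 19. Sqstm1, which encodes p62, the best-known receptor for ubiquitinated cargo, had 445, 424 and 416 CPM in GFP and 742, 763 and 744 in TDP43-NLS libraries, 1.75-fold higher (log2 fold change 0.81, standard error 0.04, adjusted p = 2.25e-09). Wdfy3, which encodes ALFY, a scaffold for aggregate clearance that binds p62, had 99.8, 112 and 100 CPM against 223, 218 and 208 (log2 fold change 1.06, standard error 0.05, adjusted p = 1.68e-09), in a region whose median was 0.28. The mitochondrial receptors Bnip3 and Fkbp8 rose by log2 fold changes of 1.15 and 0.56 (adjusted p = 3.53e-07 and 1.35e-07). All libraries of one group lay on the same side of the other for these 4 genes, which were picked for their small adjusted p. The groups did not overlap in 63.2% of all tested genes either. The 3 receptors that fell were Ncoa4, Nufip1 and Rtn3, with log2 fold changes of -0.51, -0.22 and -0.15.

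**Figure D4:**
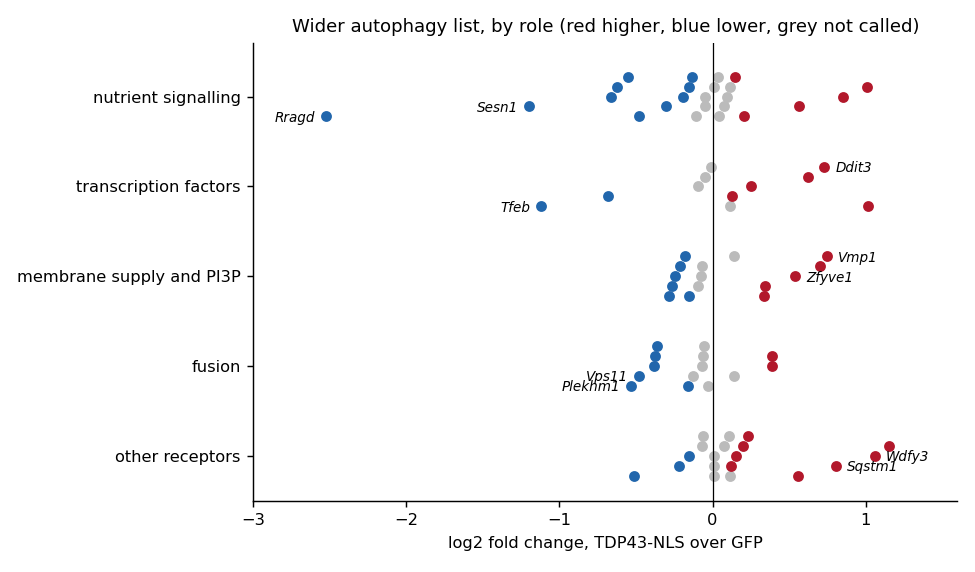
Log2 fold change (TDP43-NLS over GFP) of the 83 tested genes of the wider list by role, each point a gene, red where higher and blue where lower at an adjusted p under 0.05, with the 2 smallest adjusted p per role named. Rragd at -2.52 and Tfeb at -1.12 lie at the left, Wdfy3 at 1.06 and Sqstm1 at 0.81 at the right.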

How the data were processed

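Poly(A) RNA of 6 BV2 libraries was measured. The tools named in the submitters' processing notes, without roles, are Bowtie2 2.2.3, HTSeq 0.6.0 and HISAT2 2.1.0, and the build is GRCm39. The authors deposited whole-number counts for 55359 genes and FPKM for the 25032 with a read. The deposited FPKM are the counts rescaled by a length per gene and the column total, so they are no second measurement.

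Counts were tested with edgeR 4.0.16 in R 4.3.3 (filterByExpr with at least 10 reads and 15 in total, 13199 genes, TMM scaling, quasi-likelihood test with group as the only term, two-sided). The standard error is the log2 fold change over the square root of F. Family shares used exact permutation tests. Alternatives used DESeq2 1.42.0 and limma 3.58.1 on log2(FPKM + 1) and log2(FPKM + 0.1) with a mean FPKM of at least 0.5. On simulated counts for this comparison over 13199 genes, the recovered share was 66% at 1.25-fold, 84% at 1.5-fold, 96% at 2-fold and 100% at 4-fold, with 12 false calls.

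Values per library are given for called members with an absolute log2 fold change of at least 0.3, their paralogues and untested members, and up to 4 called genes per role of the wider list with the smallest adjusted p. Other values were added after they were seen. Members and lists were chosen with earlier results of these data known. RefSeq promoters (GRCm38.p6) were used for 31 of 38 members. Member windows on chromosome 18, which holds Pik3c3 and Atg12, were left out, and no such filter was set for the windows of all genes.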

Additional observations from a re-analysis of the deposited data

How the results depend on the processing

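Over 16 alternatives, 14 of the 24 called members kept their direction and call in all but the test against a log2 fold change of 0.5, and Wipi1 and Rubcn kept them there too. That test called 1 member higher (Wipi1) and 2 lower (Rubcn and Atg4d), and 7 genes of the wider list higher and 3 lower. Pik3r4 changed sign relative to its chromosome (0.09) and to its neighbours (0.05). With 1 library left out, 12 to 16 members were called higher and 7 to 13 lower. The replicate number did not pair the libraries (same-numbered libraries correlated by -0.016, -0.0112 and 0.00189 in their deviations), and with the replicate block 14 members were called higher and 10 lower, and 23 and 27 genes of the wider list. DESeq2 called 11 members higher and 7 lower. On log2(FPKM + 1) the Wipi1 log2 fold change was 0.65, a scale that understates changes of low genes. Other causes were not tested. Members with few reads (Wipi1, Atg10) carry the widest errors.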
